A study of Homo sapiens with 2 samples.

Results

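The genes of 7 secreted proteins of the acute phase and of epithelial defence were followed in ovarian carcinoma cells: SAA1, SAA2, LCN2, HP, SLPI, PI3 and ORM1. They were found by gene symbol and are 7 of the 36601 genes in the deposited matrix. The cells came from xenografts of the established human ovarian carcinoma line OVCAR5, which carried an IFNy-sensing reporter and CFP, in NSG-B2m-/- mice, which lack T, B and NK cells of their own. Cytokines were injected into the tumours, the suspensions were tagged with hashtag antibodies and mixed, and CFP+ (bystander) tumour cells were sorted and run as 1 droplet-based 3′ single-cell library. The pool description lists 13 tumours: 3 with TNFa at 10 ng/ml for 6 h, 2 with IFNy at 100 ng/ml plus TNFa at 10 ng/ml for 6 h, 2 with IFNy at 100 ng/ml for 24 h, 1 with IFNy at 100 ng/ml for 48 h, and unexposed tumours taken at 6 h (2), 24 h (2) and 48 h (1). The separate treatment fields of the gene expression and hashtag libraries name an unstimulated culture and TNFa instead, which is at odds with a pool of tumours. The age of the mice, and whether the reporter line is a single clone, were not given in the sources used here.

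Each cell was placed by its pair of hashtags, such as HTO2+HTO5. Cells fell into 13 pairs: HTO2 with HTO5 to HTO9, HTO3 with HTO5, HTO6, HTO7 or HTO9, and HTO4 with HTO6 to HTO9. The sources used here do not say which pair is which tumour, and exposed and unexposed tumours were therefore not set against each other. The pairs are described singly, with no test between them. Of 9083 barcodes, 2994 cells had a pair, at least 500 genes and no more than 20% of their UMIs (counted molecules) from mitochondrial genes. Pairs held 110 to 507 cells and 765923 to 5058403 UMIs, with a median of 6434.5 to 9450.0 UMIs per cell. Levels are summed UMIs of a gene per 1000000 UMIs of the pair (CPM) with exact Poisson 95% intervals, which cover counting error only. Since 3′ UMIs are not scaled by transcript length, levels were compared between pairs for 1 gene and not between genes.

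Acute-phase proteins are made in bulk by the liver during inflammation, mainly under interleukin-6, interleukin-1 and tumour necrosis factor, through the transcription factors STAT3, C/EBP and NF-kB. Many epithelia, and carcinomas that arise from them, make some of the same proteins locally, together with antiproteases and antimicrobial proteins that guard mucosal surfaces. SAA1 and SAA2 are the acute-phase serum amyloid A proteins, LCN2 (lipocalin 2) withholds iron from bacteria by binding their siderophores, and HP (haptoglobin) binds free haemoglobin. SLPI and PI3 (elafin) are WAP-domain inhibitors of neutrophil serine proteases, and ORM1 (orosomucoid 1) is a plasma carrier glycoprotein.

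The cells read as epithelial. Of 10 epithelial markers none was at 0, and 2874 of 2994 cells (96.0%) had UMIs of 3 or more of them. No cell had 3 or more of 10 hepatocyte markers, and ALB, APOB, TTR, CYP3A4, TAT and APOC3 were at 0 in all cells. The summed hepatocyte level was 0 to 2.16 CPM across pairs. No cell had 3 or more of 10 neutrophil markers, whose summed level was 0.736 to 5.04 CPM, and CSF3R, S100A12, ELANE, MPO and CEACAM8 were at 0. Of 10 macrophage or monocyte markers, 3 or more were found in 19 cells (0.635%), and their summed level was 40.5 to 72.5 CPM, 64.0% of it CD68. Only 2 cells had 3 or more fibroblast markers, and no share of cells in another type was taken from these few cells as a level of free RNA. Of those 2 cells, both had an SAA UMI and 1 had an LCN2 UMI.

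Of the members, 6 had the 30 UMIs set as a minimum, and ORM1 had 1 UMI in all. The level in the highest pair was 4 times that in the lowest or more for 5 of those 6, against 21.9% of the 13596 genes with 30 UMIs or more. With the lower limit of that ratio at 4 or more the count was 4 of 6, against 2.70% of genes. The median ratio was 13.3 over the 6 members and 2.34 over all genes. SAA1, SAA2 and PI3, 3 of the 6 members, were higher in all 5 HTO2 pairs than in any of the 8 other pairs, against 1.49% of genes; none was lower in all of them, against 1.32%. The ratio takes the extremes of 13 pairs and depends on how many UMIs a gene has. With few UMIs counting error can raise it, while 3 counts put for a 0 can hold it down. A lower limit at 4 or more is also harder to reach with few UMIs. The shares of all genes, here and below, were not matched for UMIs. HP and PI3 are read from their intervals below. In the 400 cells with at least 1000 genes and no more than 10% mitochondrial UMIs the ratio was 11.8 for SAA1, 8.72 for SLPI and 4.55 for PI3, in place of 23.9, 14.7 and 12.01. For PI3, 3 counts stood in for the 0 UMIs of its lowest pair. In those cells SAA2 was the 1 member with all HTO2 pairs above the others.

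**Figure D1:**
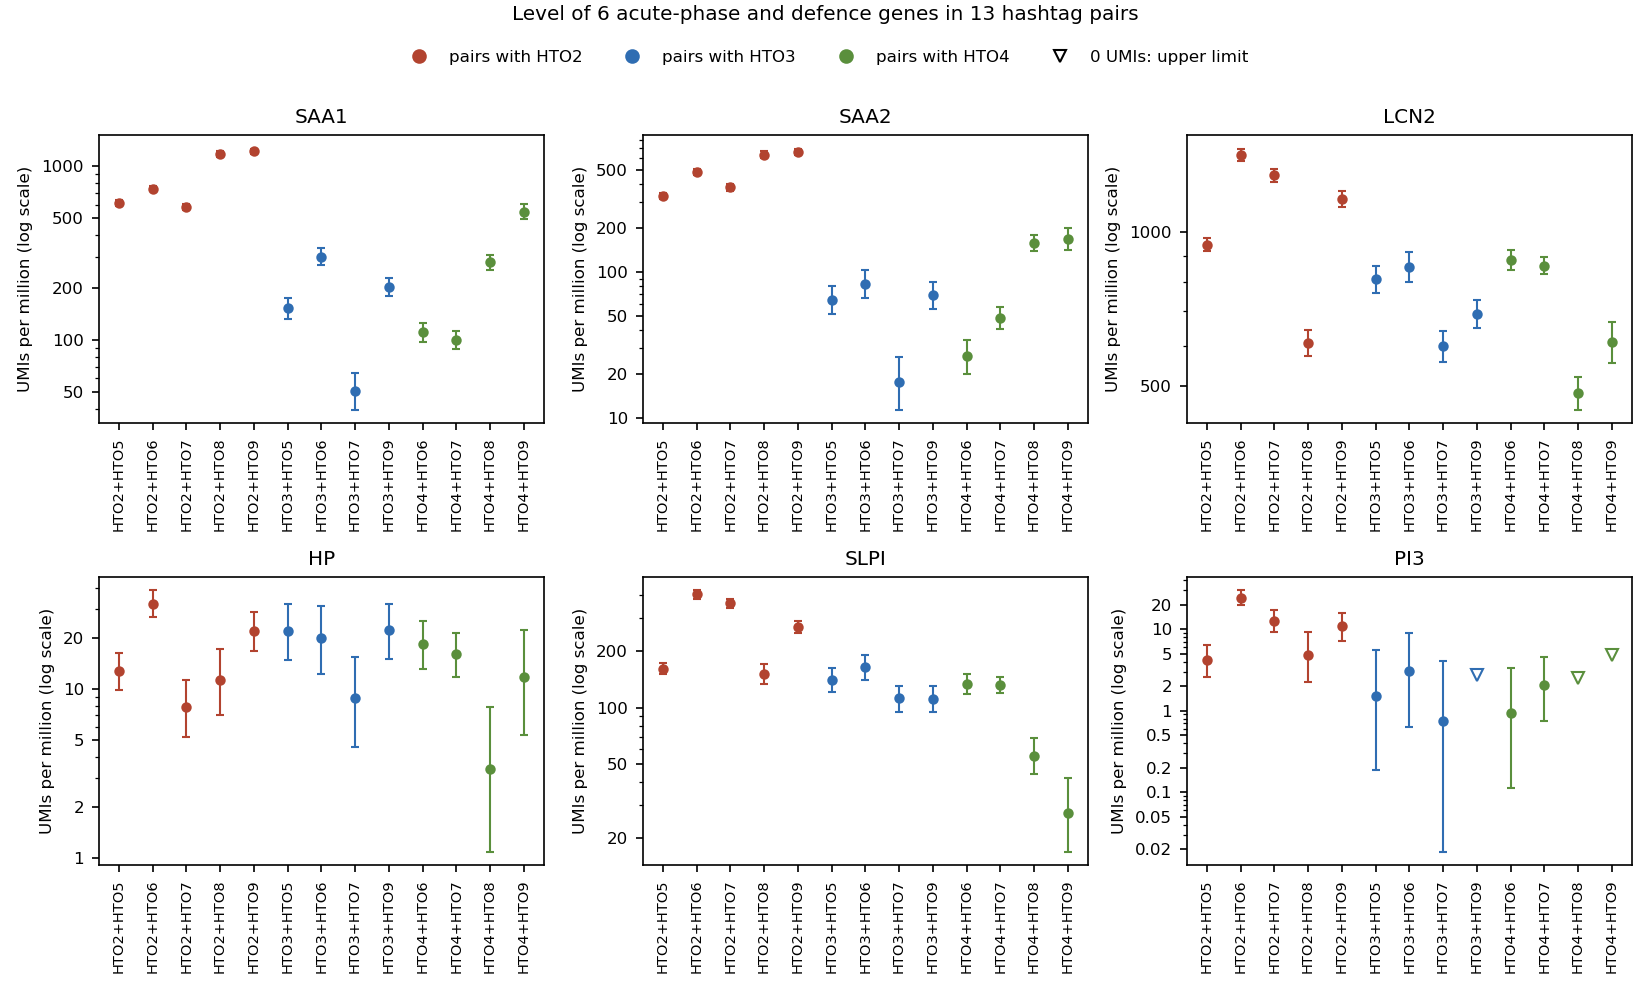
Level of each member (vertical axis, CPM on a log scale) in the 13 hashtag pairs (horizontal axis), coloured by the hashtag HTO2, HTO3 or HTO4 that the pair carries. Points are summed UMIs of 1 pair, bars are exact Poisson 95% intervals and open triangles are the upper limit where 0 UMIs were counted; the 5 HTO2 pairs lie above all others for SAA1, SAA2 and PI3, while LCN2 and SLPI peak in HTO2+HTO6 and HTO2+HTO7.

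SAA1 and SAA2 ranged widely over the pairs. The genes lie 17530 bases apart on opposite strands of chromosome 11 (GRCh38, GENCODE 29), SAA1 on the plus strand at chr11:18266174-18269977 and SAA2 on the minus strand at chr11:18239223-18248643. They are near-copies: the coding sequences of the 4-exon transcripts SAA1-201 and SAA2-201 are both 369 bases long and match at 358 of them (97.0%). Of the 11 differing bases, 10 fall in the last 150 coding bases, bases 220 to 369 counted from the start codon. They are shown because the separate counts of the pair rest on such differences, with the bases that differ in capitals.
SAA1: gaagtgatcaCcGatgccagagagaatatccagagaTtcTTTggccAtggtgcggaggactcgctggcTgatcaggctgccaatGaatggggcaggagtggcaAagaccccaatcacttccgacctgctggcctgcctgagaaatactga
SAA2: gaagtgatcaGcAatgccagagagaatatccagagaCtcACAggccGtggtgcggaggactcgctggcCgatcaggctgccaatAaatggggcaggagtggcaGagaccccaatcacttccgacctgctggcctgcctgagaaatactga
Over the whole SAA1 transcript, 87 of 516 windows of 100 bases occur unchanged in the SAA2 transcript. In the last 300 bases, from which 3′ libraries mostly read, none of 201 windows of SAA1 occurs in SAA2. The treatment of reads that match both genes was not given in the sources used here. Values of SAA1 plus SAA2 are reported as well.

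SAA1 stood at 1215 CPM in HTO2+HTO9 (interval 1173 to 1258) and 1171 CPM in HTO2+HTO8. The other HTO2 pairs followed, with 741 CPM in HTO2+HTO6, 612 CPM in HTO2+HTO5 and 582 CPM in HTO2+HTO7. Thus the lowest HTO2 pair lay just above HTO4+HTO9, which had 547 CPM (interval 496 to 602), and those intervals overlap. Next in order came HTO3+HTO6 at 301 CPM, HTO4+HTO8 at 280 CPM and HTO3+HTO9 at 201 CPM. The bottom of the order held HTO3+HTO5 at 152 CPM, HTO4+HTO6 at 111 CPM, HTO4+HTO7 at 100.3 CPM and HTO3+HTO7 at 50.8 CPM (interval 39.5 to 64.3). The highest pair was 23.9 times the lowest (interval 18.8 to 30.8), with 69 UMIs behind the lowest value.

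SAA2 kept nearly the same order over pairs (Spearman rho 0.984 with SAA1 over 13 pairs, which share 1 library). HTO2+HTO9 had 666 CPM, HTO2+HTO8 636 CPM and HTO3+HTO7 17.7 CPM, a ratio of 37.7 (interval 25.2 to 59.0) with 24 UMIs in the lowest pair. The remaining HTO2 pairs held 331 to 486 CPM. Outside HTO2 the level was 168 CPM in HTO4+HTO9, 158 in HTO4+HTO8 and 17.7 to 82.6 CPM in the remaining 6 pairs, so for SAA2 the HTO2 pairs stood apart. Of all SAA1 and SAA2 UMIs of a pair, SAA1 made up 60.4% in HTO2+HTO6 (Clopper-Pearson 95% interval 58.9 to 61.8) and 80.7% in HTO4+HTO6 (75.8 to 85.1). The 5 HTO2 pairs lay between 60.4% and 64.9%, and HTO4+HTO8 at 63.8% was the 1 other pair in that range.

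Single cells differed far more than the pair means. In HTO2+HTO9 the median cell had 10.0 SAA1 plus SAA2 UMIs, in HTO2+HTO8 it had 9.0, and in the HTO3 pairs, HTO4+HTO6 and HTO4+HTO7 it had 0. Over all 2994 cells, the 150 cells with the most (5%) carried 42.4% of the SAA UMIs. In HTO3+HTO9 the top 8 of 149 cells carried 76.0%, and a single cell with 159 UMIs held much of the pair's 363. Without the top cell of each pair for the gene, SAA1 in HTO3+HTO9 was 103 CPM in place of 201, and the ratio for SAA2 was 61.5 in place of 37.7, since HTO3+HTO7 then had 14 UMIs. At equal depth, with each cell thinned to 4000 UMIs and 186 shallower cells left out (4 to 30 per pair), 87.2% of HTO2+HTO8 cells had an SAA UMI (81.3 to 91.7) and 20.0% of HTO3+HTO7 cells (13.6 to 27.7). Unthinned, those shares were 96.2% and 32.4%. Cells with 10 or more thinned SAA UMIs were 26.6% of HTO2+HTO9, 24.6% of HTO2+HTO8, and 0% of HTO3+HTO7 and HTO4+HTO6.

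**Figure D2:**
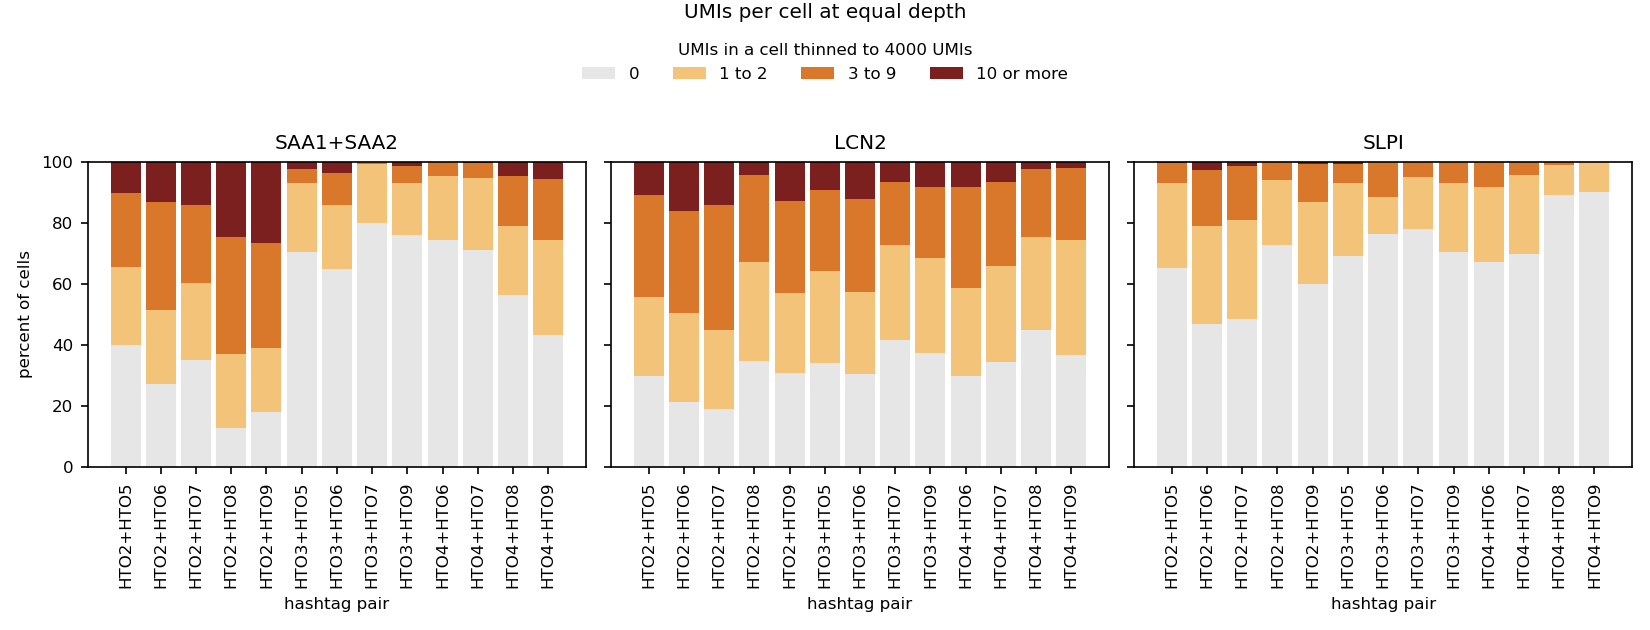
Percent of cells (vertical axis) in each hashtag pair (horizontal axis) with 0, 1 to 2, 3 to 9 or 10 or more UMIs of SAA1 plus SAA2, LCN2 or SLPI, after each cell was thinned to 4000 UMIs. The share without an SAA UMI ran from 12.8% in HTO2+HTO8 to 80.0% in HTO3+HTO7, and that without an LCN2 UMI only from 18.9% in HTO2+HTO7 to 44.9% in HTO4+HTO8.

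LCN2 was the steadiest member. It is encoded at chr9:128149071-128153455 on the plus strand. Its level was 1419 CPM in HTO2+HTO6 (interval 1380 to 1458), 1292 CPM in HTO2+HTO7, 1164 CPM in HTO2+HTO9 and 945 CPM in HTO2+HTO5. The fifth HTO2 pair broke the pattern: HTO2+HTO8, among the richest in SAA, had 607 CPM (572 to 644) and rank 11 of 13. That interval overlaps those of HTO4+HTO9 and HTO3+HTO7. The 8 other pairs ran from 884 CPM in HTO4+HTO6 through 860 CPM in HTO4+HTO7, 854 CPM in HTO3+HTO6, 810 CPM in HTO3+HTO5, 692 CPM in HTO3+HTO9, 610 CPM in HTO4+HTO9 and 599 CPM in HTO3+HTO7 down to 484 CPM in HTO4+HTO8 (interval 449 to 520). The ratio of highest to lowest was 2.93 (2.71 to 3.18). The median over all genes was 2.34, but those genes were not matched to the 27953 UMIs of LCN2. At equal depth 81.1% of cells in HTO2+HTO7 and 55.1% in HTO4+HTO8 had an LCN2 UMI. The range of LCN2 was not stable to the cell filter: in those 400 cells the ratio was 7.26, with HTO2+HTO9 highest and HTO4+HTO6 lowest, and the order of pairs correlated with that above at rho 0.374. In those cells HTO2+HTO8 was no longer an exception and came next after HTO2+HTO9 and HTO2+HTO7.

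The 250 bases before and 50 after the LCN2 start site in RefSeq (GRCh38.p14, chr9:128149203-128149502, plus strand) are shown because LCN2 is a textbook NF-kB target and its level is set below against NF-kB response genes. The capitals mark the 1 match to GGAATNTCC, an NF-kB-like motif that was chosen after this sequence was seen.
LCN2: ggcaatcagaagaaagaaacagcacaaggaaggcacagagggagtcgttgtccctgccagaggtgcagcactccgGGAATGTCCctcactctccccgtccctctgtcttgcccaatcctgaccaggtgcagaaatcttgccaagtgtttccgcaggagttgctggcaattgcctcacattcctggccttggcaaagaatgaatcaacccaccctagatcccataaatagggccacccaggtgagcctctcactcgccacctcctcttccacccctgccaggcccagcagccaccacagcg
The match starts 175 bases before the start site. Read on both strands, this motif occurs in 1.07% of 35116 promoters of that length, TTNNGNAA (C/EBP-like) in 36.8% and TTCNNNGAA (STAT-like) in 7.66%. In the LCN2 window TTNNGNAA had 1 match and TTCNNNGAA had 0. The table held promoters of 2 members; that of ORM1 had 0, 2 and 0 matches to these motifs. A match describes letters and not a bound site.

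SLPI followed LCN2 with a wider range. It lies at chr20:45252239-45254564 on the minus strand. Its level was 403 CPM in HTO2+HTO6 (interval 382 to 424), 362 CPM in HTO2+HTO7 and 271 CPM in HTO2+HTO9, above all other pairs. The next 8 pairs were close together, from 164 CPM in HTO3+HTO6, 162 CPM in HTO2+HTO5 and 151 CPM in HTO2+HTO8 to 112 CPM in both HTO3+HTO7 and HTO3+HTO9. At the bottom stood HTO4+HTO8 with 55.2 CPM (43.9 to 68.6) and HTO4+HTO9 with 27.4 CPM (17.0 to 41.9, 21 UMIs). The ratio was 14.7 (9.57 to 23.8). These were 2 of the 3 pairs with the fewest UMIs per cell. At equal depth 10.8% (6.51 to 16.5) and 10.0% (4.68 to 18.1) of their cells had an SLPI UMI, against 22.2% to 53.0% in the other 11 pairs. In these 2 pairs SAA1 was not lowest: it had rank 8 in HTO4+HTO8 and rank 6 in HTO4+HTO9.

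PI3 lies 75694 bases from SLPI, at chr20:45174876-45176544 on the plus strand, and was sparse. All 206 UMIs but 14 came from HTO2 pairs: 89 in HTO2+HTO6 (24.3 CPM, interval 19.5 to 29.9), 45 in HTO2+HTO7 (12.6 CPM), 28 in HTO2+HTO9 (10.9 CPM), 21 in HTO2+HTO5 (4.15 CPM) and 9 in HTO2+HTO8 (4.86 CPM). The others had 0 to 6 UMIs each, with HTO3+HTO9, HTO4+HTO8 and HTO4+HTO9 at 0. With 3 counts put for the 0 UMIs of HTO4+HTO8 (2.02 CPM), the ratio of HTO2+HTO6 to that pair was 12.01, with a lower limit of 9.57. The exact Poisson upper limit for PI3 in HTO4+HTO8 was 2.48 CPM. Intervals of the lowest HTO2 pairs overlapped those of other pairs, among them HTO3+HTO6 at 3.02 CPM (0.623 to 8.83).

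HP (chr16:72054592-72061055, plus strand) had 481 UMIs, and its HTO2 pairs were interleaved with the others. Its highest level was 32.2 CPM in HTO2+HTO6 (26.6 to 38.5), followed by HTO3+HTO9, HTO3+HTO5, HTO2+HTO9 and HTO3+HTO6 between 20.1 and 22.3 CPM. The lowest was 3.37 CPM in HTO4+HTO8 (1.09 to 7.86, 5 UMIs), and HTO2+HTO7, rich in LCN2 and SLPI, had 7.86 CPM. The ratio was 9.55, with an interval of 3.98 to 29.97 that reaches below 4. Expression was concentrated in few cells: 6.95% of cells had an HP UMI, and in HTO2+HTO6 the top 19 of 371 cells carried 88.1% of its UMIs. With each cell thinned to 4000 UMIs, HP was highest in HTO3+HTO9, then HTO3+HTO5 and HTO3+HTO6, and no longer in HTO2+HTO6. HPR, a neighbour 2092 bases away whose transcript is 96.3% identical to that of HP over 1240 aligned bases, had 0 UMIs.

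ORM1 (chr9:114323056-114326475, plus strand) had 1 UMI, in HTO2+HTO9, and its near-copy ORM2 had 0. This is at the limit of detection at this depth, with 29032973 UMIs over the 2994 cells.

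Over the 13 pairs SAA1 and SAA2 were highest in HTO2+HTO8 and HTO2+HTO9, whereas LCN2, SLPI and PI3 were highest in HTO2+HTO6 and HTO2+HTO7. Spearman's rho over pairs was 0.802 for LCN2 and SLPI, 0.956 for SLPI and PI3 and 0.762 for LCN2 and PI3, against 0.407 for SAA1 and LCN2, 0.593 for SAA1 and SLPI and 0.652 for SAA1 and PI3. HP followed none of them closely (0.0879 with SAA1, 0.451 with LCN2 and 0.313 with SLPI). Within the 8 pairs without HTO2 the value for LCN2 and SLPI stayed high (0.690), and those of SAA1 with LCN2 (-0.238) and SLPI (-0.262) fell below 0. For SLPI and PI3 it was 0.903, but PI3 had only 0 to 6 UMIs in each of these pairs, too few to order them. All these values are descriptions over pairs that share 1 library and differ in depth.

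**Figure D3:**
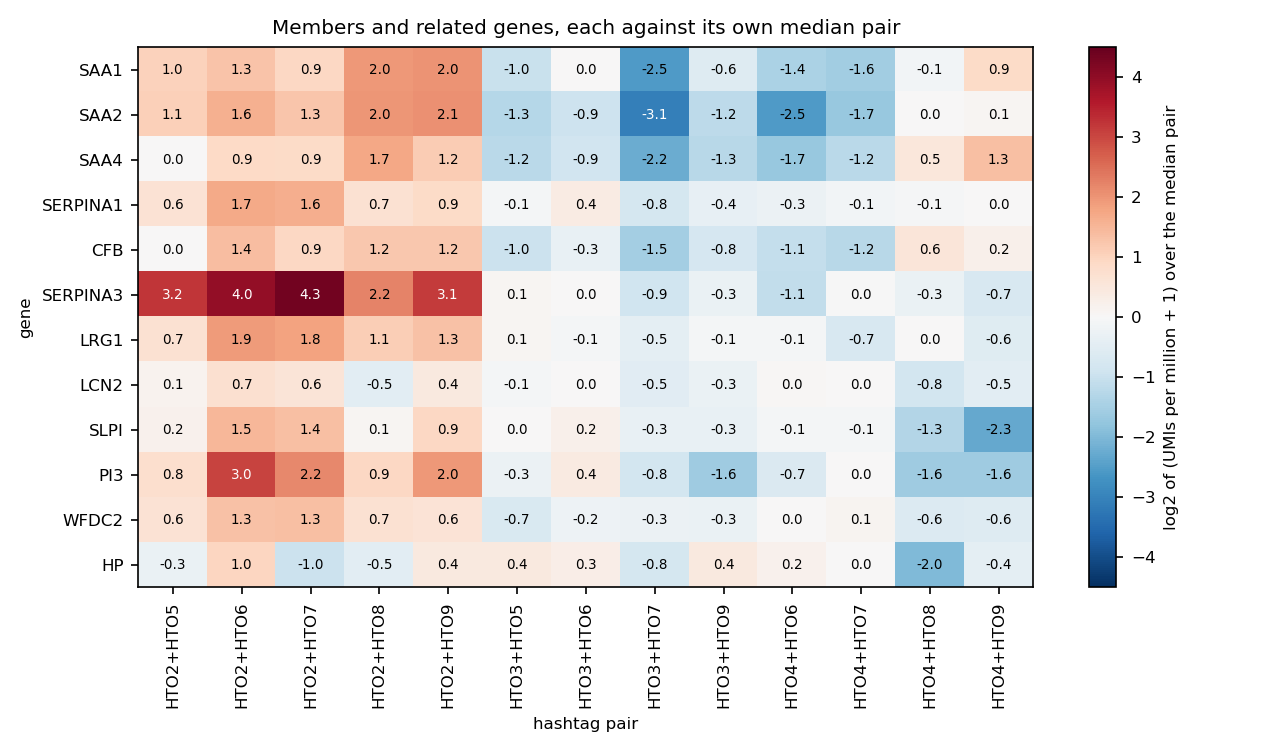
Level of 12 genes (rows) in 13 hashtag pairs (columns) as log2 of CPM plus 1 over the same for the median pair of that gene; red is above and blue below the median. SAA1 and SAA2 peak in HTO2+HTO9 and HTO2+HTO8, SAA4 in HTO2+HTO8 and then HTO4+HTO9, SERPINA3, SERPINA1, LRG1, WFDC2, SLPI, PI3 and LCN2 in HTO2+HTO6 or HTO2+HTO7, and LCN2 in HTO2+HTO8 lies below its median.

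A pair of reference lists sets these orders beside the cytokine response of each pair. The summed level of 8 NF-kB response genes (NFKBIA, TNFAIP3, ICAM1, SOD2, BIRC3, CCL20, CXCL8 and LTB) was 6772 CPM in HTO2+HTO6, 5385 CPM in HTO2+HTO7, 4911 CPM in HTO2+HTO9, 4197 CPM in HTO2+HTO8 and 1473 CPM in HTO2+HTO5, and 316 to 765 CPM in the 8 other pairs. A list of 7 interferon gamma response genes (CXCL10, GBP1, IRF1, IDO1, CD74, PSMB9 and WARS) summed to 18319 CPM in HTO2+HTO8, 15877 CPM in HTO2+HTO9, 9167 in HTO4+HTO9 and 7991 in HTO4+HTO8. The sum was 437 to 1845 CPM in the remaining 9 pairs. SAA1 plus SAA2 was highest in the 2 pairs with high sums of both lists, and its highest values outside HTO2 (715 and 438 CPM) were in HTO4+HTO9 and HTO4+HTO8. Those 2 pairs had a high interferon sum and also the highest NF-kB sums outside HTO2, 765 and 662 CPM. Over the 8 pairs without HTO2, rho with the NF-kB sum was 0.714 for SAA1 and 0.857 for SAA2, and with the interferon sum 0.690 and 0.738. Over the 5 HTO2 pairs, rho with the NF-kB sum was -0.1 for SAA1 and 0.2 for SAA2. With the interferon sum it was 0.8 and 0.9 there, and 5 pairs are few for such values. SLPI was lowest in HTO4+HTO9 and HTO4+HTO8. Over the 8 pairs without HTO2 rho with the NF-kB sum was -0.643 for SLPI, -0.429 for LCN2 and -0.586 for PI3. The PI3 value rests on 0 to 6 UMIs per pair, too few to order these pairs. Within HTO2 the direction differed: SLPI ran with LCN2 in the order of the NF-kB sum, apart from HTO2+HTO5, which exceeded HTO2+HTO8 in both (for SLPI with overlapping intervals, 151 to 173 and 134 to 170 CPM). HTO2+HTO5 had the lowest sum of both lists among the HTO2 pairs, and its SAA1 plus SAA2 level, 943 CPM (917 to 971), overlapped that of HTO2+HTO7, 961 CPM (929 to 993).

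**Figure D4:**
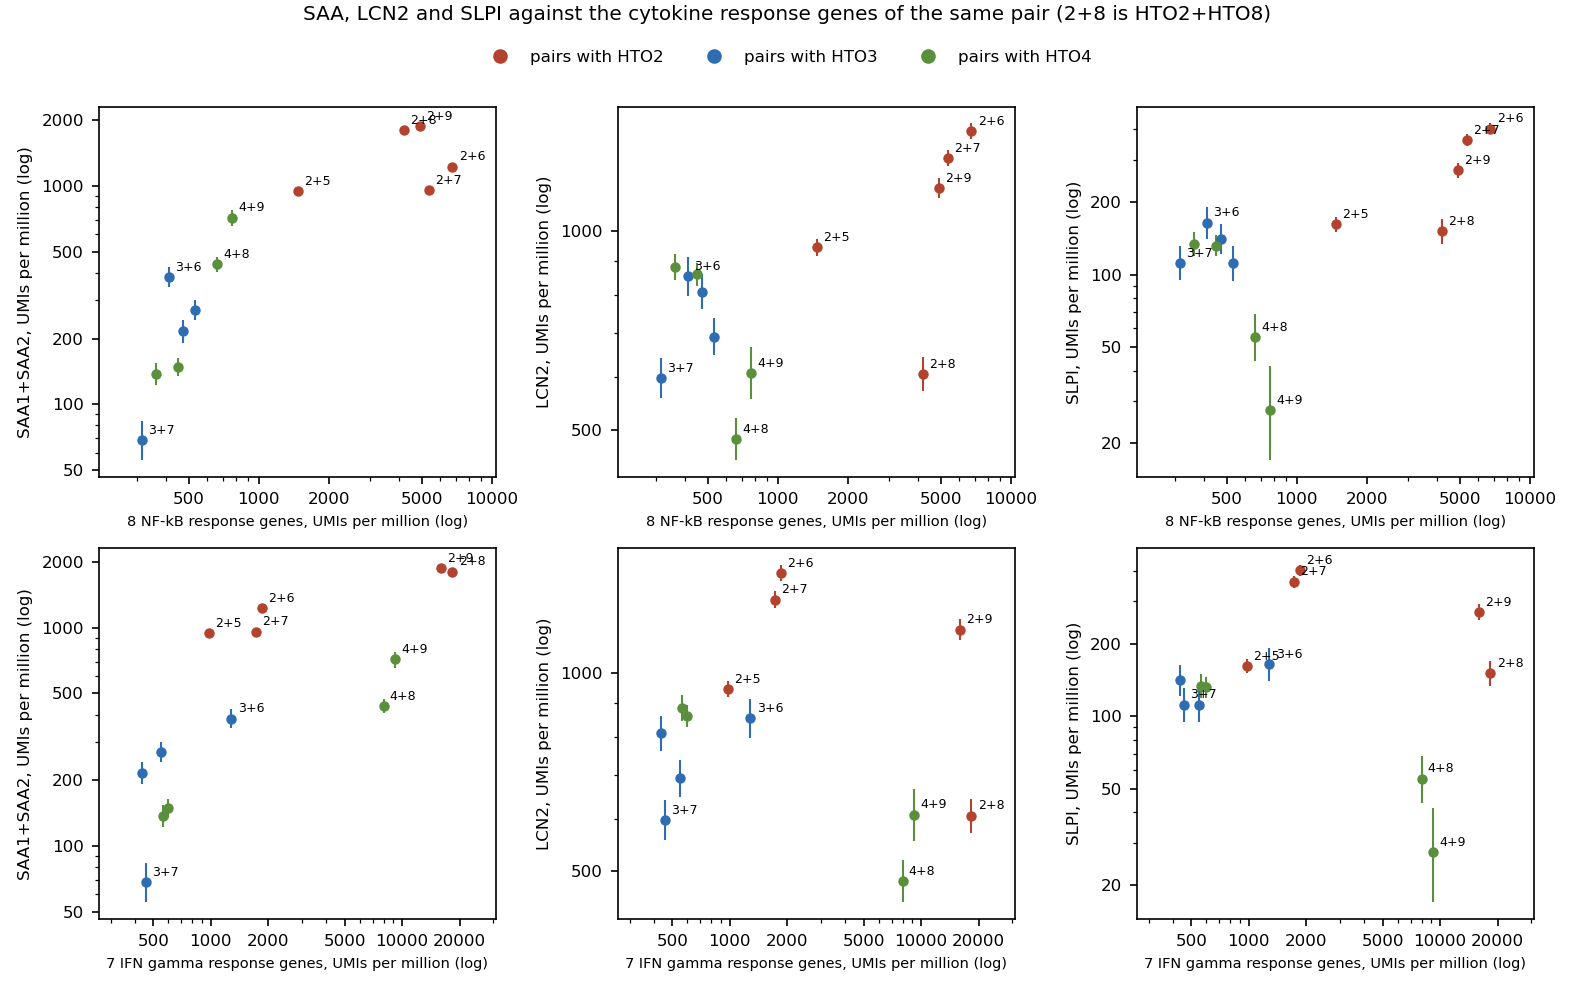
SAA1 plus SAA2, LCN2 and SLPI (vertical axes) against the summed level of 8 NF-kB response genes (upper row) and 7 interferon gamma response genes (lower row) of the same pair; both axes are CPM on a log scale, bars are exact Poisson 95% intervals and the extreme pairs are labelled by their hashtag numbers. SLPI is lowest in HTO4+HTO8 and HTO4+HTO9 (55.2 and 27.4 CPM), where the interferon sum is 7991 and 9167 CPM. In HTO2+HTO8 and HTO2+HTO9, where that sum is highest (18319 and 15877 CPM), SLPI is at 151 and 271 CPM.

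Cells were then compared within pairs. Pearson's r of log1p UMIs per 10000, with each pair's mean removed, was 0.378 for LCN2 and SLPI over 2994 cells (0.310 over 2808 thinned cells) and above 0 in 13 of 13 pairs (12 when thinned). For SLPI and PI3 it was 0.242 (0.175 thinned), above 0 in 8 of the 10 pairs with a value and in 5 pairs when thinned. For LCN2 and PI3 it was 0.0613 (0.0275 thinned), below the values of SAA with LCN2, SLPI and PI3 (0.172, 0.146 and 0.0813). SAA was more alike to the interferon list (0.343) and the NF-kB list (0.273), both above 0 in 13 of 13 pairs, than LCN2 was (0.117 and 0.0530). Cells share the library and its free RNA, and values this low in sparse counts are description only. At equal depth 18.1% of cells had UMIs of SAA, LCN2 and SLPI together, and 13.7% had none.

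The genes most like each member were taken by rule from the 6264 genes with 500 UMIs or more. Over pairs, SAA1 was closest to EHD4 (rho 0.962), ICAM1 (0.956), CXCL16, CD47 and KIAA0040 (0.934 each). SAA2 was closest to ICAM1 (0.973), EHD4, IL32, CFB and CD47. ICAM1, the leukocyte adhesion molecule, had 27.2 CPM in HTO3+HTO7 and 1261 CPM in HTO2+HTO9. SLPI was closest to UXS1 (0.956), ROBO1, ITGB8, TSPAN15 and MCTP1, and PI3 to SEPTIN11 (0.961), GFPT2, UXS1, ITGB8 and ROBO1, so 3 genes stood in both lists. LCN2 was closest to POLR2K (0.951), MGLL, RTKN, VDAC1 and TRIP10, and HP to TCN1 (0.769), EEF2, MIGA1, FKBP1A and TSR3. By Pearson's r on log2(CPM + 1) 1 to 3 of each 5 remained, so single names depend on the measure.

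Over cells within pairs, SAA1 was closest to NNMT (r = 0.387), SAA4 (0.361), CD74 (0.343), HLA-B (0.289) and CCL2 (0.288), and SAA2 to NNMT (0.400), SAA4, CFB, VCAM1 and CD74. SAA4 is the neighbour of SAA2, 2329 bases away. NNMT is a nicotinamide-methylating enzyme, and CD74 is the chaperone of MHC class II. LCN2 and SLPI were both closest to RARRES1 (0.383 and 0.369). LCN2 was next closest to C9orf16, which lies 6804 bases away on the same strand, then to CPVL, MUC5B, a gel-forming mucin, and ANXA4. SLPI was followed by PSCA, FTH1, CP and CFB. HP was closest to CD74 (0.178), NNMT, GCHFR, HLA-B and HLA-DRA, and PI3 to TNFAIP6 (0.171), S100A9, C15orf48, CCL20 and GBP3.

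Among 22 other acute-phase genes, 8 had 30 UMIs or more and 7 were not detected at all, among them CRP, FGA and FGG. Of the 8, 7 reached 4-fold between pairs, and 6 had the lower limit there, against 2.70% of all genes. SERPINA1, SERPINA3 and LRG1, 3 of the 8, were higher in all HTO2 pairs than elsewhere, against 1.49% of all genes. Against 21.9% of all genes at 4-fold and a median ratio of 2.34, the median ratio here was 6.32. SERPINA3 (antichymotrypsin) had the widest range, from 8.81 CPM in HTO4+HTO6 to 429 CPM in HTO2+HTO7, a ratio of 48.7 (31.1 to 81.1), and the 5 HTO2 pairs held 97.3 CPM or more against at most 21.4 CPM elsewhere. SERPINA1 (antitrypsin) ran from 33.1 to 188 CPM and CFB, complement factor B, from 70.0 to 539 CPM. CP (ceruloplasmin) varied 3.14-fold. SAA4, the constitutive serum amyloid A, was lowest in HTO3+HTO7 (2.95 CPM) and highest in HTO2+HTO8 (60.5 CPM).

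Of 27 epithelial defence genes, 13 had 30 UMIs or more, 7 of these reached 4-fold (21.9% of all genes did) and the median ratio was 4.06. The lower limit was at 4-fold for 4 of the 13, against 2.70% of all genes. WFDC2 (HE4), a WAP-domain protein used as an ovarian cancer marker and encoded 215141 bases from SLPI, ran from 83.5 CPM in HTO3+HTO5 to 339 CPM in HTO2+HTO7 and was higher in all HTO2 pairs than elsewhere, as was the sparse PGLYRP2 (56 UMIs). WFDC2 and PGLYRP2 were 2 of the 13, against 1.49% of all genes. SERPINB1, an inhibitor of neutrophil proteases, varied 2.69-fold, and the cysteine protease inhibitors CSTB and CST3 varied 1.71-fold and 1.23-fold. S100A9, a subunit of calprotectin, is outside the naming rule and was picked for its value: the lowest pair was HTO3+HTO7 with 0.736 CPM (1 UMI) and the highest HTO2+HTO9 with 283 CPM.

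The regulators varied less. Of 28 listed, 22 had 30 UMIs or more, 6 reached 4-fold, a share near the 21.9% of all genes, and 1 had its lower limit there. The median ratio was 2.57, near that of all genes. NFKB1, NFKB2, RELB and IL6ST, 4 of the 22, were higher in all HTO2 pairs than elsewhere, against 1.49% of all genes. CEBPD varied 1.78-fold, STAT3 2.16-fold and IL6ST, the signalling subunit of interleukin-6 receptors, 2.26-fold, each highest in HTO2+HTO9. ELF3, an epithelial transcription factor, went the other way, from 145 CPM in HTO3+HTO5 to 59.7 CPM in HTO2+HTO9. Of 14 partners and receptors 7 had 30 UMIs or more and 2 reached 4-fold, both with the lower limit there too (21.9% and 2.70% of all genes): PLSCR1, a phospholipid scramblase that binds SLPI, at 6.10-fold and TLR2 with 0 UMIs in its lowest pair. ANXA2, GRN (progranulin, which SLPI shields from elastase) and SCARB1, a receptor for serum amyloid A, varied 1.46-fold, 1.43-fold and 2.86-fold.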

How the data were processed

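The deposited matrix holds whole-number UMI counts per gene and hashtag, not normalised. Cell Ranger 5.0.1 is named per the file headers, and Cell Ranger 2.1.1 with GRCh38 per the submitters' processing notes. The upstream annotation was not given in the sources used here. Columns of other samples numbered 0.

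A cell's pair was its 2 highest of HTO2 to HTO9, the second at 20 counts or more and 4 times the third or more, which leaves out barcodes with a further hashtag; doublets within a pair cannot be seen this way. Members and lists were chosen with earlier results of these data known. Named genes were the members, for each member with 100 UMIs or more the 5 genes most like it over pairs and over cells, and from each list the 4 members with the most UMIs (1 listed gene is not reported here and was left out of its list's sum); list members with all HTO2 pairs above the others, SAA4, TLR2 and S100A9 were named besides, after their values were seen. Ratios carry exact conditional 95% intervals, and shares exact Clopper-Pearson ones. A count of 0 was set at 3 counts for a ratio. Ratios and likeness were tested on simulated counts. A single Clopper-Pearson interval was checked against another implementation, and thinning was checked on real cells for the total it leaves. Coordinates and transcripts came from GENCODE 29 and promoters from RefSeq. Since the library is 1 pool with pairs not mapped to tumours, no p-value was computed. Tools were Biopython 1.88, matplotlib 3.10.9, pandas 2.3.3, scipy 1.17.1 and numpy 2.4.6 in Python 3.11.15.

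Alternatives were stricter, looser and no cell filters, other hashtag rules, the mean over cells, a denominator without mitochondrial UMIs, thinning, other correlation measures and, chosen after seeing the data, each pair without its highest cell.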

Additional observations from a re-analysis of the deposited data

Results flagged for a closer look

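Barcodes in a pair with more than 20% mitochondrial UMIs were left out of the values above, and members were counted in them too: these 4077 barcodes held 10103 SAA1, 6159 SAA2, 19701 LCN2, 469 HP, 3384 SLPI and 114 PI3 UMIs. The order of pairs in these barcodes correlated with that in the cells used at rho 0.923 for SAA1, 0.945 for SAA2, 0.890 for LCN2, 0.852 for SLPI, 0.722 for PI3 and 0.429 for HP. Per 1000000 UMIs without the mitochondrial ones, LCN2 was at 1319 in the barcodes left out and 1123 in the cells used, and SLPI at 227 and 240.5. In the same order, SAA1 was at 676 and 618, SAA2 at 412 and 343, HP at 31.4 and 19.3 and PI3 at 7.63 and 8.28.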

How the results depend on the processing

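All 6 members with 30 UMIs or more were recomputed under 10 settings, which gave 59 ratios of highest to lowest pair, since HP had too few UMIs under the strictest cell filter. Of these, 10 left the interval of the value given above. The count of members at 4-fold or more was 5 in every setting run, but the members were not always the same. Under the strictest cell filter HP was not counted and LCN2, at 7.26, took its place. The count with all HTO2 pairs above the others was 3; it was 1 (SAA2) in the 400 cells with at least 1000 genes and no more than 10% mitochondrial UMIs, and 4, with SLPI added, with looser or no cell filter and with a hashtag ratio of 10. Over the settings the ratio was 11.8 to 25.6 for SAA1, 25.95 to 61.5 for SAA2, 2.78 to 7.26 for LCN2, 7.01 to 12.5 for HP and 8.72 to 16.8 for SLPI. For PI3 it was 4.55 to 24.9, with 3 counts put for the 0 UMIs of its lowest pair. The lowest value for SAA1, SLPI and PI3 and the highest for LCN2 came from the strictest filter, and the highest for SAA2 from leaving out the top cell of each pair. Why the ratios moved was not tested; the strictest filter leaves fewer cells. Of the correlations between members over cells, recomputed in 3 ways (30 values), 14 moved and none changed sign. No paired analysis was possible because 1 pooled library holds all tumours and the hashtag pairs are not mapped to tumours. Depth limits PI3, HP and ORM1 most.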
